A study of Mus musculus with 8 samples.

Results

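SR proteins and hnRNPs are the main families of RNA-binding proteins that set which exons a cell splices into its mRNA, and their transcripts were followed here in mouse embryonic stem cells (ESCs). The genes were chosen by name: symbols made of Srsf and a number, symbols starting with Hnrnp, and Tra2a, Tra2b, U2af1, U2af2, Sf1 and Sf3b1, leaving out annotated pseudogenes. This gave 37 of the 49641 entries in the deposited table, of which 11 code for SR proteins, 2 for Tra2 proteins, 4 for factors that recognise the 3′ splice site and 20 for hnRNPs. The naming rule itself used no measured value, although it was set with earlier results of these data known. Of the 37, 36 had a mean of at least 1 FPKM (fragments scaled to transcript length and to mapped fragments, a level that can be compared between genes) and were tested. The exception was Srsf12, an SR protein gene, with 1.08 and 0.727 FPKM in the wild-type libraries and 0.427 to 0.937 FPKM in the other 6.

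RNA sequencing covered 4 groups of 2 libraries, all labelled as the V6.5 ESC line on a 129/C57BL/6 background. Wild-type (WT) control cells had an intact Dgcr8 gene. The other 3 groups were Dgcr8 knockout (KO) cells, which lack the partner protein that Drosha needs to make canonical microRNAs: KO control cells, KO cells given a miR-294 mimic, and KO cells given siRNAs against Mbnl1 and Mbnl2 together (siMbnl1/2). Mimic or siRNA was transfected at 50 nM, 16 hours after plating. The labels call the first 2 groups controls without naming a control RNA, and their deposited column names hold the word mock. Those column names also give the WT and KO controls different cell line names. Any difference between the lines is therefore part of the KO minus WT comparison and cannot be told apart from the loss of Dgcr8. The number of clones behind the KO line is not given in the sources used here, and the labels do not tell apart growth on gelatin and on fibroblast feeders.

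SR proteins bind exonic enhancer sequences through RNA recognition motifs and use arginine-serine domains to recruit the splicing machinery, while many hnRNPs bind silencer sequences and oppose exon inclusion. Tra2 proteins are SR-like activators. U2AF, a dimer of the small subunit U2af1 and the large subunit U2af2, binds the 3′ splice site with Sf1 at the branch point, before the U2 snRNP and its subunit Sf3b1 take over. Muscleblind-like proteins (Mbnl1 and Mbnl2) are splicing regulators that favour differentiated splicing patterns, and miR-294 is 1 of the miR-290 family, the most abundant microRNAs of mouse ESCs. The values used here are transcript levels per gene. They hold no measure of exon use or of protein, so splicing itself was not examined.

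The seed of miR-294 (bases 2 to 8, in capitals) is shown first because it is the sequence through which the mimic recognises its targets; the labels do not name the arm of the mimic, and the 3p arm is shown. miR-291a-3p and miR-295-3p, other members of the family, carry the same seed. The mature sequences are from RefSeq (GRCm38.p6).
mmu-miR-294-3p: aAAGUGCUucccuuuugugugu
mmu-miR-291a-3p: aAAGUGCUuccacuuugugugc
mmu-miR-295-3p: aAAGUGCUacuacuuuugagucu

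The letters that pair with this seed, AGCACTT, were searched on the transcript strand of the longest annotated 3′ UTR of each gene (GENCODE, mm10). The following sites are shown because they lie in the 3 genes of these families that were lower after miR-294 and in 3 that were higher. Capitals mark the 7 matching bases, or in Hnrnpul1 the 6 bases GCACTT, since no 7-base match was found in its longest UTR.
Hnrnph3, chr10:63015084-63015090, minus strand: accctcatAGCACTTgactaaga
Hnrnpr, chr4:136347435-136347441, plus strand: agtttagtAGCACTTactcctgt
Hnrnpul1, chr7:25721235-25721240, minus strand: agcaaaccGCACTTattacaag
Hnrnpu, chr1:178327030-178327036, minus strand: agtggtagAGCACTTattatcag
Srsf1, chr11:88052952-88052958, plus strand: accacgaaAGCACTTaaatctct
Tra2b, chr16:22245590-22245596, minus strand: gggcttttAGCACTTtgttgtta
Not every annotated transcript carries the site. It is in 2 of 3 coding transcripts of Hnrnph3, 1 of 4 of Hnrnpr, 1 of 3 of Hnrnpul1, 1 of 1 of Hnrnpu, 1 of 3 of Srsf1 and 1 of 2 of Tra2b.

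Dgcr8 was at 22.9 and 21.9 FPKM in the WT libraries and at 6.58 to 8.50 FPKM in the 6 KO libraries. Mbnl2 was at 24.7 and 28.6 FPKM in KO controls and at 11.2 and 14.3 FPKM after siMbnl1/2 (log2 change -1.01 ± 0.12 SE, adjusted p = 0.0191, limma). Mbnl1 was at 8.003 and 9.42 FPKM in KO controls and at 6.84 and 6.76 FPKM after siMbnl1/2, which did not pass the test (log2 change -0.31 ± 0.10 SE, adjusted p = 0.158, limma). All 10 ESC marker genes were above 1 FPKM in every library, and 9 of 12 fibroblast markers were below 1 FPKM in every library. The ESC markers summed to 5288 to 5338 FPKM in WT, 5803.5 to 6376 in KO, 5385 to 5486 with miR-294 and 7222 to 7272 with siMbnl1/2. Single ESC markers differed both ways. Klf2 had a mean of 44.8 FPKM in WT and 167 in KO, and Utf1 had 315 and 172. Primitive endoderm markers (7 genes) summed to 65.7 FPKM in both WT libraries and to 3.61 to 4.48 FPKM in the KO libraries, so that the KO minus WT comparison also holds a difference in these markers. Neuroectoderm markers (4 genes) summed to 12.2 to 13.3 FPKM in WT, 21.9 to 22.5 in KO, 10.1 to 10.6 with miR-294 and 14.4 to 14.7 with siMbnl1/2, and so differed in miR-294 minus KO as well. Mesoderm (3 genes) and trophoblast (4 genes) markers summed to at most 4.48 and 7.44 FPKM in any library, with their highest sums in miR-294 libraries. The part of these markers in the results was not tested. In bulk RNA, fewer cells of a type and less RNA per cell cannot be told apart. Library sums ran from 473746 to 571508 FPKM. Depth is unknown, and nothing in the labels says that the 2 libraries of a group came from separate cultures, so the p-values reflect the spread of these libraries, which may be technical.

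The 36 tested genes were expressed at high levels in every group. Of these, 26 had a mean of 100 FPKM or more over the 8 libraries, a level reached by 778 of the 12786 genes tested. The most abundant SR protein gene was Srsf5, at 473 and 438 FPKM in WT, 410 and 378 in KO, 407 and 406 with miR-294 and 434 and 413 with siMbnl1/2. The most abundant hnRNP gene was Hnrnpa3, whose protein belongs to the A/B group of hnRNPs, at 1142 and 1168 FPKM in WT, 979 and 1051 in KO, 1047 and 1080 with miR-294 and 1015 and 897 with siMbnl1/2. U2af1 led the 3′ splice site factors and Tra2a the Tra2 pair. The WT libraries were the highest for both Srsf5 and Hnrnpa3, although the call differed: Srsf5 was called lower in KO (log2 change -0.21, adjusted p = 0.0281, limma) and Hnrnpa3 was not (-0.19, adjusted p = 0.0578).

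**Figure D1:**
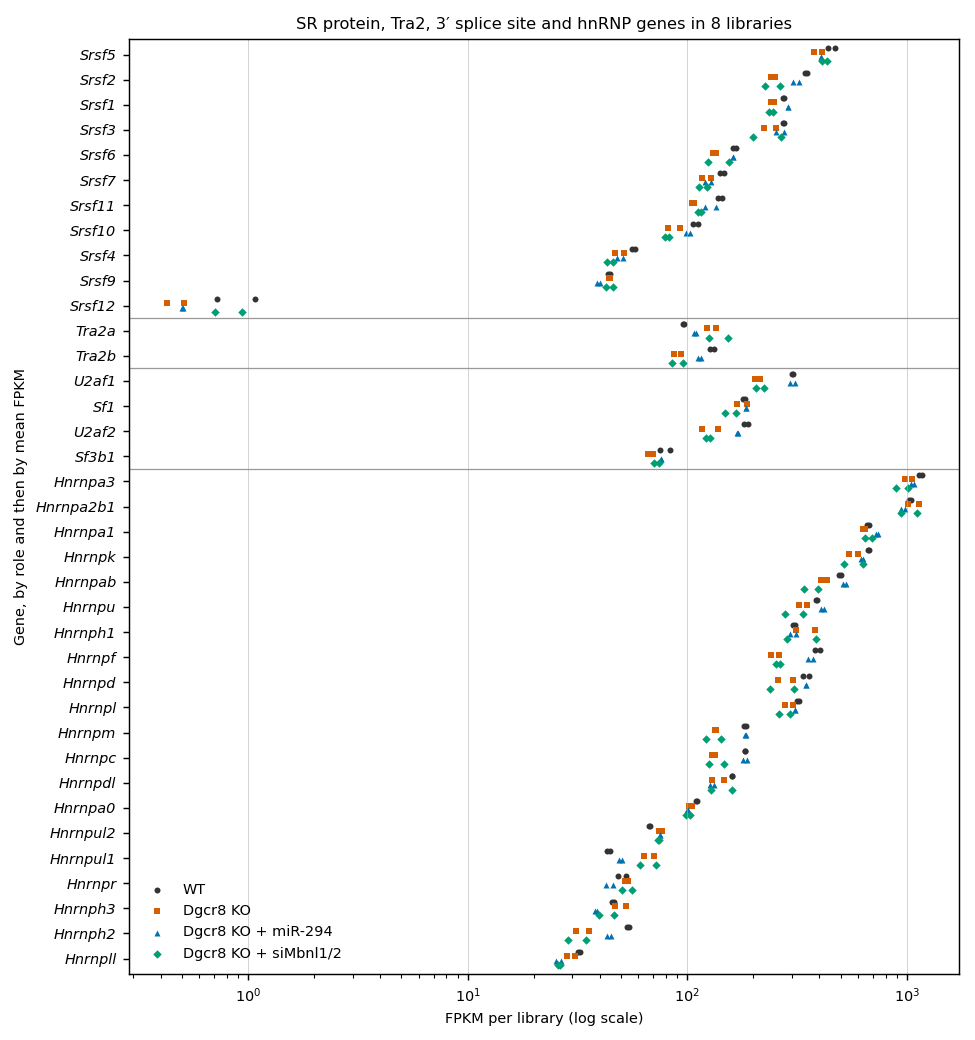
FPKM of the 37 genes in each of the 8 libraries on a log axis, grouped by role (SR proteins, Tra2 proteins, 3′ splice site factors, hnRNPs) and ordered by mean within a role. Each point is 1 library; Srsf12 lies near or below 1 FPKM, while the other 36 genes lie above 25 FPKM in every library.

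The first comparison, KO minus WT, shows the cells without canonical microRNAs against normal ESCs. The general splicing factors U2af1 and U2af2, 8 of 10 SR protein genes and 5 of 20 hnRNP genes were lower in KO, and Tra2a and the Hnrnpul genes were higher. Of 36 genes, 17 (47.2%) were called lower and 3 (8.33%) higher, with a median log2 change of -0.21. Among all 12786 genes tested, 59.8% were called in this comparison, 30.1% lower and 29.6% higher, with a median of 0. A call is an adjusted p under 0.05 from limma on log2(FPKM + 1), fitted over all 8 libraries and adjusted over all genes tested by the Benjamini-Hochberg method; the scale understates changes of low genes. By role, 8 of 10 SR protein genes, 3 of 4 splice site factors and 5 of 20 hnRNP genes were lower, and no gene of the first 2 roles was higher.

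These counts have to be read beside the level of the genes. Of the 778 genes at a mean of 100 FPKM or more, 66.2% were called lower and 11.4% higher in KO, with a median of -0.39. The 26 splicing factor genes at that level had 13 lower and 1 higher, with a median of -0.22. The other 10 had 4 lower and 2 higher, beside 35.9% and 27.8% of all genes at their level, a mean of 10 to 100 FPKM. The counts also depend on scaling. Quantile normalization gives all libraries the same distribution of values. After it, 4 genes were lower and 11 higher and the median of the 36 was 0.07. Of all genes, 30.5% were then called lower and 27.0% higher, with a median of -0.04. Genes at a mean of 100 FPKM or more then had a median of -0.06. Tra2b, Hnrnpf, Hnrnph2 and U2af1 were lower, and Tra2a and Hnrnpul1 higher, under each of the 17 alternative settings tried; the other calls were lost under at least 1 setting. Srsf1, a founding SR protein, was called lower as deposited (-0.17, adjusted p = 0.0288) and higher after quantile normalization (0.16, adjusted p = 0.0188, limma).

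U2af1 (mm10, chr17:31647082-31658754), which reads the AG at the 3′ splice site, was at 301 and 303 FPKM in WT and at 214 and 204 FPKM in KO. Both KO libraries lay below both WT libraries, and the log2 change was -0.53 ± 0.06 SE (adjusted p = 2.97e-04, limma). U2af2 (chr7:5062143-5079938), which binds the polypyrimidine tract, was at 190 and 181 FPKM in WT and at 139 and 116 FPKM in KO. It fell by 0.54 ± 0.09 SE on the log2 scale (adjusted p = 0.00116, limma). In the same group, Sf3b1 fell by 0.22 (adjusted p = 0.0305), while Sf1 was not called (-0.03, adjusted p = 0.765).

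Hnrnpf (chr6:117900324-117925622) binds runs of G near splice sites. It was at 383 and 403 FPKM in WT and at 262 and 242 FPKM in KO. The KO mean was 64.0% of the WT mean, with no overlap of the libraries, and the log2 change was -0.64 ± 0.07 SE (adjusted p = 1.45e-04, limma). Its X-linked relative Hnrnph2 (chrX:134601179-134607060) was at 53.4 and 54.2 FPKM in WT and at 31.3 and 35.8 FPKM in KO. At 62.3% of the WT mean, Hnrnph2 was the lowest of the 36 genes relative to WT (log2 change -0.67 ± 0.10 SE, adjusted p = 0.00101, limma). Another relative, Hnrnph1, did not pass the test: it was at 305 and 311 FPKM in WT and at 313 and 381 FPKM in KO. Hnrnpc, which binds runs of U and is part of the core hnRNP particle, fell by 0.47, Hnrnpm by 0.44 and Hnrnpab by 0.24 on the log2 scale.

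The SR protein genes called lower were Srsf2 (log2 change -0.50), Srsf11 (-0.41), Srsf10 (-0.32), Srsf6 (-0.30), Srsf7 (-0.23), Srsf5 (-0.21), Srsf4 (-0.21) and Srsf1 (-0.17). Srsf2, a nuclear SR protein that acts through exonic enhancers, was at 350 and 344 FPKM in WT and at 240 and 250 FPKM in KO. After quantile normalization the changes of Srsf1, Srsf5, Srsf6 and Srsf7, and of Sf3b1 and Hnrnpab, were above 0. Srsf3 (-0.20, adjusted p = 0.23) and Srsf9 (0.01, adjusted p = 0.917) were not called. The loci of Srsf2, Hnrnpab, Hnrnph3, Hnrnpu and Hnrnpk each overlap another protein-coding gene on the opposite strand, and Hnrnpm and Hnrnpul2 each overlap one on the same strand; whether the counting used strand is not given in the sources used here.

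The 3 genes that were higher in KO were 2 U-like hnRNPs and a Tra2 gene. Hnrnpul1 (chr7:25721165-25754757) was at 44.4 and 43.0 FPKM in WT and at 70.6 and 63.6 FPKM in KO. Its KO mean was 153% of the WT mean, the highest ratio among the 36 genes (log2 change 0.61 ± 0.09 SE, adjusted p = 9.99e-04, limma). Tra2a (chr6:49243924-49264033) was at 96.7 and 96.0 FPKM in WT and at 123 and 135 FPKM in KO. Here too the groups did not overlap, and the log2 change was 0.41 ± 0.10 SE (adjusted p = 0.00744, limma). Hnrnpul2 was at 67.5 and 67.2 FPKM in WT and at 77.1 and 74.2 FPKM in KO, a log2 change of 0.17 ± 0.06 SE (adjusted p = 0.0369, limma). That call held under 8 of the 17 alternatives. It was lost with no filter on low values, without the variance trend and robust estimation, and with a replicate block. Fitting just the libraries compared also lost it, as did leaving out either WT library, KO replicate 1 or either miR-294 library.

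Tra2b, the paralog of Tra2a, moved the other way: it was at 132 and 127 FPKM in WT and at 87.4 and 93.5 FPKM in KO (log2 change -0.51 ± 0.07 SE, adjusted p = 7.64e-04, limma). The ratio of Tra2a to Tra2b FPKM within a library is not changed by a scale factor for that library, although quantile normalization, which shifts genes by their level, would change it. It was 0.733 and 0.756 in WT and 1.40 and 1.44 in KO, so Tra2b was the more abundant of the pair in WT and Tra2a in KO. With miR-294 the ratio was 0.932 and 0.972, and with siMbnl1/2 it was 1.59 and 1.47. Such ratios were also taken for 7 other pairs, all chosen after the levels had been seen and given without a test. Hnrnpf exceeded Hnrnph1 in WT (ratios 1.26 and 1.30) and with miR-294 (1.21 and 1.21), and was below it in KO (0.836 and 0.635) and with siMbnl1/2 (0.687 and 0.888). The ratio of Hnrnph1 to Hnrnph2 was 5.70 and 5.74 in WT, 10.02 and 10.6 in KO, 6.78 and 6.96 with miR-294 and 11.1 and 9.91 with siMbnl1/2. The U2af1 to U2af2 ratio, for the subunits of 1 dimer, ranged from 1.54 to 1.85 over the 8 libraries with overlapping WT and KO values (1.59 and 1.68 against 1.54 and 1.75).

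**Figure D2:**
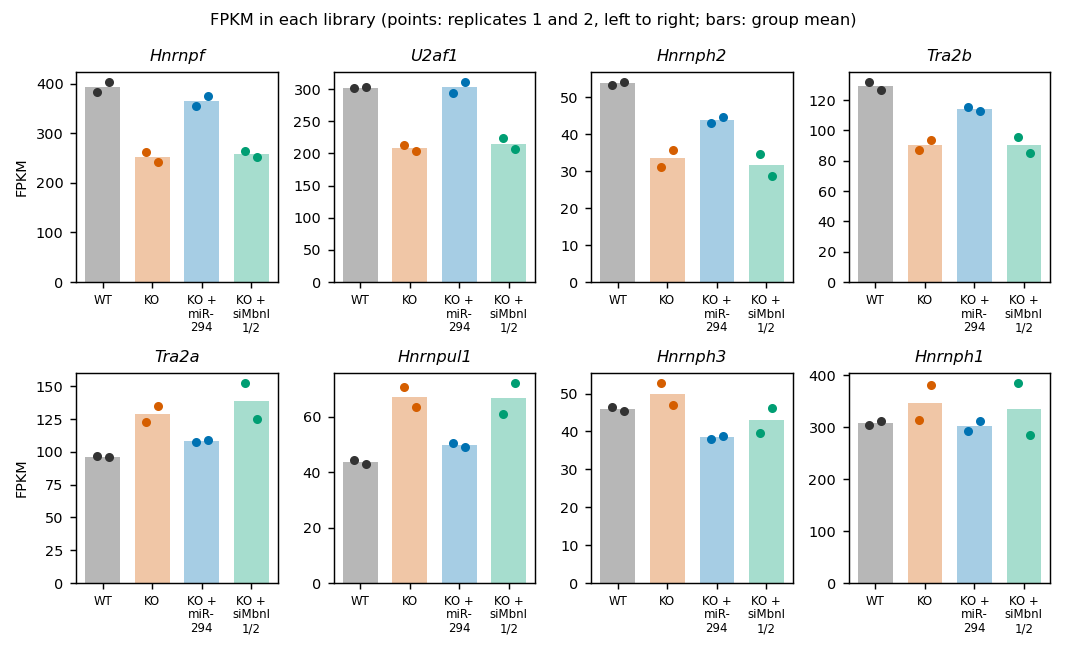
FPKM of 8 genes in each library (points, replicates 1 and 2 from left to right) with the group means as bars; all axes start at 0. Hnrnpf, U2af1, Hnrnph2 and Tra2b are lower in the KO and siMbnl1/2 libraries than in WT and miR-294, Tra2a and Hnrnpul1 are higher, and in Hnrnph1 the replicates of KO and siMbnl1/2 spread the widest.

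The next comparison, miR-294 minus KO, sets KO cells given 1 miRNA of the missing set against KO controls. No control RNA is named for those controls, so the part of transfection with a small RNA cannot be told apart from that of miR-294. U2af1, U2af2, Tra2b, 4 SR protein genes and 7 hnRNP genes were higher with the mimic, and 3 hnRNP genes were lower. Of 36 genes, 14 (38.9%) were called higher and 3 (8.33%) lower, with a median log2 change of 0.13. Among all genes tested, 52.2% were called, 22.9% higher and 29.2% lower, with a median of -0.06. This comparison shares the KO libraries with the previous one, so an opposite sign in both is not counted as a result. At a mean of 100 FPKM or more, 59.3% of all genes were called higher and 10.8% lower (median 0.31), against 13 higher and 0 lower of the 26 splicing factor genes at that level (median 0.21). The 3 genes that were lower all came from the 10 at lower levels. Those 10 lay at a mean of 10 to 100 FPKM, where 28.3% of all genes were called lower and 27.2% higher. After quantile normalization 2 genes were higher and 15 lower, with a median of -0.17. The 2 were Hnrnpf and U2af1. Of all genes, 25.6% were then called higher and 24.4% lower, with a median of 0.02. Genes at a mean of 100 FPKM or more then had a median of 0.04. Hnrnpa1, a repressor of exon inclusion, was called higher as deposited (0.19, adjusted p = 0.0250) and lower after quantile normalization (-0.25, adjusted p = 0.00505, limma).

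Hnrnpf was at 355 and 376 FPKM with miR-294, above both KO libraries (262 and 242) and below both WT libraries (383 and 403). The log2 change from KO was 0.54 ± 0.07 SE (adjusted p = 5.29e-04, limma). U2af1 was at 294 and 311 FPKM with miR-294 against 214 and 204 in KO, a log2 change of 0.53 ± 0.06 SE (adjusted p = 4.49e-04, limma). The miR-294 libraries lay on either side of the WT values of U2af1. Hnrnpc was at 180 and 186 FPKM with miR-294 against 130 and 133 in KO (0.47 ± 0.08 SE, adjusted p = 0.00233, limma). Hnrnpm was at 184 and 183 FPKM with miR-294 against 134 and 136 in KO (0.44 ± 0.08 SE, adjusted p = 0.00249, limma). For both genes the miR-294 libraries were clear of the KO libraries, but neither call held after quantile normalization (adjusted p = 0.0742 for Hnrnpc and 0.105 for Hnrnpm). One annotated pseudogene near-identical to Hnrnpc reached 26.6 FPKM in 1 library, so reads could be shared between them.

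The other genes called higher were U2af2 (log2 change 0.41), Hnrnph2 (0.38), Srsf2 (0.35), Tra2b (0.33), Hnrnpab (0.31), Hnrnpu (0.30), Srsf6 (0.28), Srsf11 (0.27), Srsf1 (0.24) and Hnrnpa1 (0.19). Leaving out 1 library lowered the count of 14 to 9 without KO replicate 1, to 7 without miR-294 replicate 1 and to 6 without miR-294 replicate 2. The 3 lower became 1 and 0 without those miR-294 libraries, 2 without either KO or either WT library, and 6 without either siMbnl1/2 library. The KO minus WT count of 17 fell without either WT library. It also fell without either miR-294 library, which enters that fit through the shared spread, and rose without either siMbnl1/2 library. With libraries weighted by group spread it was 22 of 36, beside 31.5% of all genes called lower.

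The 3 genes called lower with miR-294 were Hnrnpul1, Hnrnph3 and Hnrnpr. Hnrnpul1 was at 50.6 and 49.1 FPKM with miR-294 against 70.6 and 63.6 in KO, a log2 change of -0.42 ± 0.09 SE (adjusted p = 0.00735, limma). Without miR-294 replicate 2 its adjusted p was 0.0512. Hnrnph3, a short relative of Hnrnph1, was at 37.98 and 38.9 FPKM with miR-294, below all 6 other libraries of WT, KO and siMbnl1/2, which ranged from 39.6 to 52.8 FPKM. Its log2 change from KO was -0.37 ± 0.09 SE (adjusted p = 0.0117, limma), lost without KO replicate 1 (adjusted p = 0.0615) and without either miR-294 library (0.0692 and 0.0541). Hnrnpr, which has a role in neurons and binds actin mRNA, was at 42.7 and 46.2 FPKM with miR-294 against 52.3 and 53.8 in KO. The change of -0.25 ± 0.08 SE (adjusted p = 0.0316, limma) was lost without any 1 of the 4 libraries compared (adjusted p from 0.0639 to 0.191) and after median-of-ratios scaling (0.0956).

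The seed matches printed above can be set beside these changes. Of all genes tested with an annotated 3′ UTR, 17.6% (2021 of 11509) held the 7-base match, and of the 36 splicing factor genes 9 did (25%): Sf3b1, Srsf1, Srsf10, Tra2b, Hnrnpa2b1, Hnrnpu, Hnrnpul2, Hnrnpr and Hnrnph3. Over all genes, those with a match had a median miR-294 minus KO change of -0.24, with 45.3% called lower and 13.0% higher. Genes without it had a median of -0.03, with 27.9% lower and 25.6% higher. Their 3′ UTRs also differed in length, with medians of 2472 and 934 bases. Among the splicing factor genes the 9 with a match had a median change of 0.15, with 3 called higher (Hnrnpu, Srsf1 and Tra2b) and 2 lower (Hnrnpr and Hnrnph3). The 27 without it had a median of 0.12, with 11 higher and 1 lower, Hnrnpul1. Of these 27, Hnrnpul1, Srsf2 and Srsf7 held the 6 bases GCACTT, followed by an A in Hnrnpul1 alone. Hnrnpr held 3 matches, all in 1 annotated transcript with a 3′ UTR of 19419 bases. A match is a description of the letters and not evidence of binding.

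**Figure D3:**
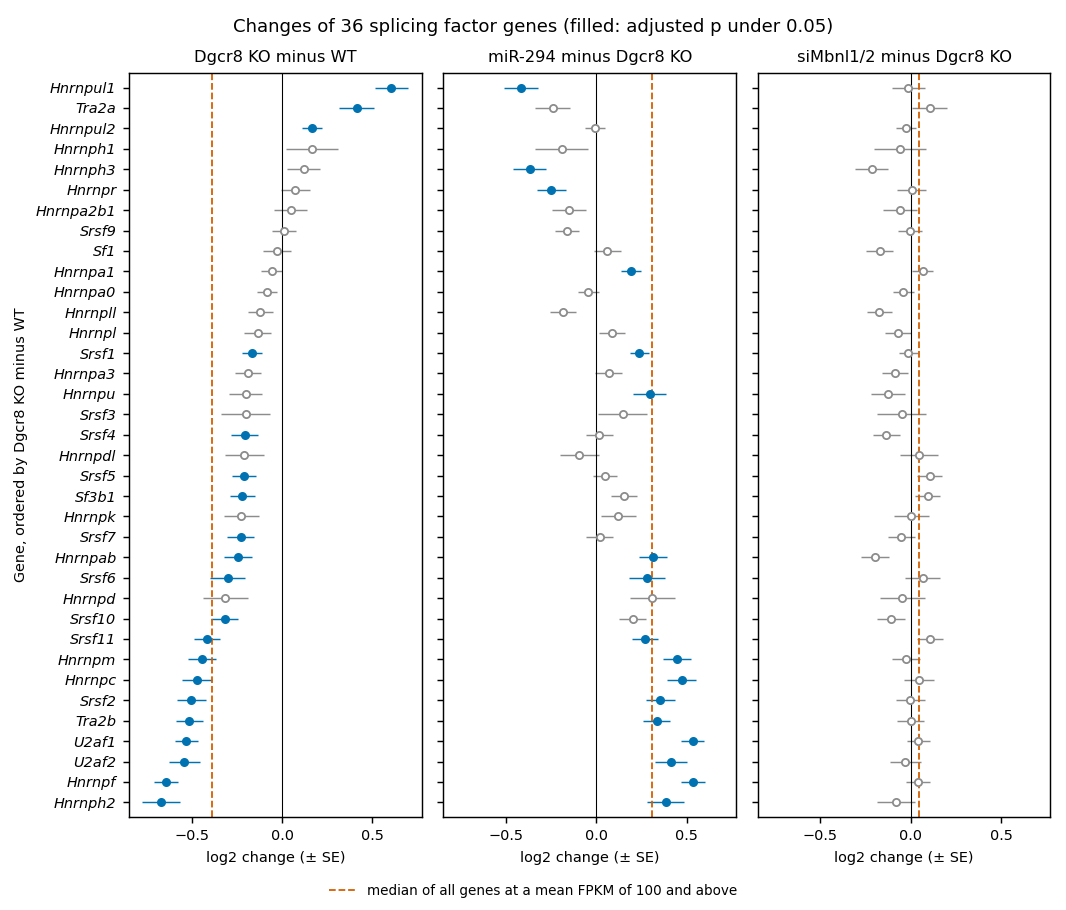
Log2 change ± SE of the 36 tested genes in 3 comparisons, ordered by KO minus WT; filled points passed an adjusted p under 0.05 and dashed lines give the median of all 778 genes at a mean of 100 FPKM or more (-0.39, 0.31 and 0.04). Most changes lie left of 0 in KO minus WT and right of 0 in miR-294 minus KO, on the side of that median, and no point is filled in siMbnl1/2 minus KO.

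The siMbnl1/2 minus KO comparison asks what followed siRNA treatment against both Mbnl genes, of which Mbnl2 was called lower and Mbnl1 was not. None of the 36 genes passed the test with limma, and 3 (Hnrnph3, Hnrnpab and Hnrnpll) had an unadjusted p under 0.05. Over all genes tested, 1.11% were called, 0.868% higher and 0.242% lower, and 18.4% had an unadjusted p under 0.05. The changes of the 36 ran from -0.22 in Hnrnph3 (adjusted p = 0.263) to 0.11 in Srsf11 (adjusted p = 0.506), with a median of -0.03 and SEs of 0.05 to 0.14. The main fit used a spread shared by all libraries, so each gene had the same SE in every comparison. The SEs therefore do not show how sensitive siMbnl1/2 minus KO was. That comparison joins the groups with the widest replicate spread. The median within-group SD of the 36 genes on the log2 scale was 0.081 in KO and 0.12 with siMbnl1/2. It was 0.020 in WT and 0.031 with miR-294. Fitted on its own libraries alone, siMbnl1/2 minus KO called 1 gene higher and 3 lower of 12786. A missed call does not show that a gene was unchanged. U2af1 had 223 and 207 FPKM with siMbnl1/2 against 214 and 204 in KO, and Hnrnpul1 had 61.0 and 72.2 FPKM against 70.6 and 63.6. For both genes the libraries of the groups overlapped. No alternative setting gave a call for any of the 36 genes.

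siMbnl1/2 minus miR-294 sets the treated KO cells side by side, which differ in the reagent they received. In siMbnl1/2 cells 14 of 36 genes were called lower and 3 higher, with a median of -0.16. Of all genes 54% were called, 21% lower and 33% higher, with a median of 0.10. At a mean of 100 FPKM or more, 54.9% of all genes were lower and 13.8% higher (median -0.27), against 12 lower and 1 higher of the 26 splicing factor genes at that level (median -0.21). After median-of-ratios scaling 20 of the 36 were lower and 1 higher, beside 27.1% and 27.2% of all genes. After quantile normalization 26.5% of all genes were lower and 24.5% higher (median -0.02). Genes at a mean of 100 FPKM or more then had a median of -0.06. The 36 genes had 6 lower and 9 higher under that scaling, with a median of 0.05. Those 6, Hnrnpab, U2af2, Hnrnpf, Hnrnph2, Hnrnpm and U2af1, were lower under all 17 alternatives. Hnrnpab, an hnRNP that binds AU-rich RNA, was at 529 and 513 FPKM with miR-294 and at 392 and 339 FPKM with siMbnl1/2 (log2 change -0.51 ± 0.08 SE, adjusted p = 0.00120, limma). Both siMbnl1/2 values of Hnrnpab lay below both KO values as well (406 and 432), although this difference was not called (adjusted p = 0.224).

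Hnrnpf was at 265 and 253 FPKM with siMbnl1/2 against 355 and 376 with miR-294 (-0.50 ± 0.07 SE, adjusted p = 6.98e-04, limma). U2af1 was at 223 and 207 FPKM against 294 and 311 (-0.49 ± 0.06 SE, adjusted p = 6.09e-04, limma). Hnrnpm was at 143 and 122 FPKM against 184 and 183 (-0.47 ± 0.08 SE, adjusted p = 0.00188, limma). In each of these genes both siMbnl1/2 libraries lay below both miR-294 libraries. The other genes lower with siMbnl1/2 were Hnrnph2 (-0.47), U2af2 (-0.44), Hnrnpc (-0.43), Hnrnpu (-0.42), Hnrnpd (-0.36), Srsf2 (-0.35), Tra2b (-0.33), Srsf10 (-0.31), Srsf1 (-0.25) and Sf1 (-0.23).

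Higher with siMbnl1/2 than with miR-294 were Hnrnpul1, Tra2a and Hnrnpr. Hnrnpul1 was at 61.0 and 72.2 FPKM against 50.6 and 49.1 (0.41 ± 0.09 SE, adjusted p = 0.00817, limma), with an adjusted p of 0.0549 without miR-294 replicate 2. Tra2a was at 153 and 125 FPKM against 108 and 109 (0.35 ± 0.10 SE, adjusted p = 0.0183, limma). Its call was lost without either miR-294 library (adjusted p = 0.0868 and 0.0752), without siMbnl1/2 replicate 1 (0.0508) and after median-of-ratios scaling (0.115). Hnrnpr was at 56.1 and 50.6 FPKM against 42.7 and 46.2 (0.26 ± 0.08 SE, adjusted p = 0.0282, limma), a call lost under 8 of 13 alternatives, among them median-of-ratios scaling (0.193), leaving out either miR-294 library (0.176 and 0.0586) and leaving out siMbnl1/2 replicate 1 (0.101). The count of 14 lower genes was 9 without miR-294 replicate 2. The 3 higher genes became 1 without miR-294 replicate 1, 0 without miR-294 replicate 2 and 5 without siMbnl1/2 replicate 2.

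miR-294 minus WT shows how near the treated KO cells came to WT in these transcripts. With all 8 libraries in the fit, no gene was higher and 1 of 36, Hnrnpll, was lower, beside 26.5% of all genes called (11.8% higher and 14.7% lower). Hnrnpll, known as a regulator of splicing in lymphocytes, was at 25.2 and 26.5 FPKM with miR-294 and at 32.4 and 31.9 FPKM in WT. The log2 change was -0.31 ± 0.07 SE (adjusted p = 0.0177, limma), and the call was lost without any 1 of the 4 libraries compared (adjusted p from 0.0737 to 0.138), after median-of-ratios scaling (0.0554) and after quantile normalization (0.110). The low count depends on the shared spread. With the 4 libraries of the comparison alone, which varied less than the others, 5 genes were higher and 16 lower, beside 20.8% and 28.6% of all genes. With weights for each group's own spread 4 were higher and 13 lower, beside 22.01% and 30.2% of all genes. Leaving out either siMbnl1/2 library, which enters through the shared spread, gave 6 lower.

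As a share of the WT mean, the 36 genes in KO had a median of 86.6%, from 62.3% in Hnrnph2 to 153% in Hnrnpul1, and 9 of 36 were within 10% of WT. With miR-294 the median was 93.1%, from 80.3% in Hnrnpll to 114% in Hnrnpul1, and 23 were within 10%. With siMbnl1/2 the median was 85.1%, from 58.9% in Hnrnph2 to 152% in Hnrnpul1, and 9 were within 10%. The count within 10% of WT was not made over all genes. Of all genes tested, 59.8% were called in KO minus WT and 26.5% in miR-294 minus WT. At a mean of 100 FPKM or more these shares were 77.6% and 23.5%. The 37 genes together summed to 9693 ± 1.17 FPKM (SD, n = 2) in WT, 8511 ± 251 in KO, 9344 ± 168 with miR-294 and 8345 ± 706 with siMbnl1/2. As a share of all FPKM in a library the sums were 1.71% ± 0.016 in WT, 1.75% ± 0.12 in KO, 1.71% ± 0.015 with miR-294 and 1.63% ± 0.15 with siMbnl1/2. The mean share in KO was thus not below that in WT, since the library sums of FPKM differed in the same direction. KO replicate 1 (1.659%) lay below both WT libraries (1.696% and 1.718%), and KO replicate 2 (1.834%) above them. By role, mean shares in KO and WT were 0.119% and 0.132% for 3′ splice site factors and 0.342% and 0.354% for SR proteins. They were 1.24% and 1.18% for hnRNPs and 0.0450% and 0.0398% for Tra2 proteins.

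The spread between replicates differed by group. The median within-group SD of the 36 genes on the log2 scale was 0.020 in WT, 0.081 in KO, 0.031 with miR-294 and 0.12 with siMbnl1/2. Hnrnph1 had the largest replicate difference in both wide groups: replicate 2 exceeded replicate 1 by 0.28 in KO, and in siMbnl1/2 replicate 2 minus replicate 1 was -0.43. Srsf3 (0.18 in KO and -0.43 in siMbnl1/2) and Hnrnpd (0.22 and -0.37) behaved alike, and Hnrnpul1 (-0.15 and 0.24) and Hnrnph3 (-0.16 and 0.22) had the signs exchanged. Across the 36 genes the replicate differences of the KO and siMbnl1/2 pairs, which share no library, had a Pearson r of -0.81. This was the largest in size among the pairs of groups. The others were 0.32 (WT and KO), -0.04 (WT and miR-294), 0.42 (KO and miR-294), -0.21 (WT and siMbnl1/2) and -0.34 (miR-294 and siMbnl1/2). Genes are not independent replicates, and no p is given. For KO and siMbnl1/2 the r over all 12786 genes was -0.05. It was not taken over other genes at the level of the 36. KO replicate 1 and siMbnl1/2 replicate 2 thus deviated one way in these genes, and KO replicate 2 and siMbnl1/2 replicate 1 the other. Library numbers carry no order, and what the libraries share is not given in the labels.

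**Figure D4:**
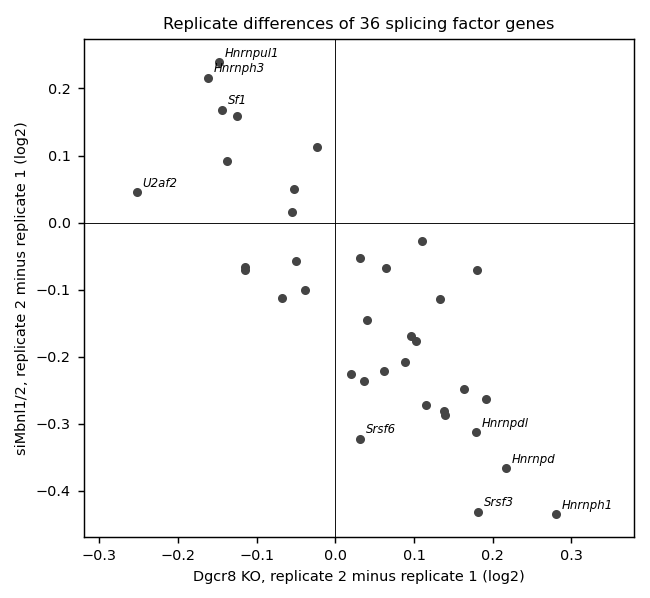
Replicate 2 minus replicate 1 on the log2 scale in KO (x axis) and in siMbnl1/2 (y axis); each point is 1 of the 36 tested genes. The points fall from upper left (Hnrnpul1, Hnrnph3) to lower right (Hnrnph1, Srsf3, Hnrnpd), with r = -0.81 across genes.

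Other parts of the splicing machinery were compared through lists of genes. Of all genes tested, 30.1% were lower and 29.6% higher in KO. With miR-294 relative to KO, 22.9% of all genes were higher and 29.2% lower. At a mean of 10 to 100 FPKM, 35.9% were lower and 27.8% higher in KO. At that level 27.2% were higher and 28.3% lower with miR-294. SR-related proteins, such as components that couple splicing to mRNA export, had 8 of 19 genes lower and 2 higher in KO, and 5 higher and 2 lower with miR-294 relative to KO. Rnps1, a part of the exon junction complex, led the list in both (-0.61 and 0.55). Kinases and the importin of SR proteins had 2 of 9 lower and 1 higher in KO, and 2 higher and 2 lower with miR-294. Tnpo3, the importin that carries SR proteins into the nucleus, was at a mean of 63.2 FPKM in WT, 40.8 in KO, 59.8 in the miR-294 group and 40.1 in the siMbnl1/2 group. The log2 changes of Tnpo3 were -0.62 in KO minus WT (adjusted p = 1.07e-04) and 0.54 in miR-294 minus KO (adjusted p = 3.30e-04, limma). Other RNA-binding proteins related to hnRNPs had 13 of 22 lower and 1 higher in KO, led by Syncrip (-0.79), and 8 higher and 1 lower with miR-294, led by Ybx1 (0.76).

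The core spliceosome lists had 68.2% to 95.7% of their genes called in KO minus WT. This stood beside 55.6% of the 36 SR and hnRNP genes and 80% of the SR protein genes alone. Of all genes, 77.6% were called at a mean of 100 FPKM or more and 63.7% at 10 to 100 FPKM. The lists were not limited to either level. With miR-294 relative to KO, 59.3% of all genes at 100 FPKM or more were higher and 10.8% lower. The differences were not tested. U4/U6.U5 tri-snRNP genes had 22 of 23 lower and 0 higher in KO, and 14 higher and 0 lower with miR-294. Prp19 complex and activation factors had 15 of 22 lower and 0 higher in KO, and 14 higher and 0 lower with miR-294. The U2 snRNP and SF3 list of 19 gene symbols matched 20 entries, which were counted separately. Of these, 14 were lower and 2 higher in KO, and 12 were higher and 0 lower with miR-294. U1 and Sm genes had 11 of 15 lower and 1 higher in KO, and 9 higher and 2 lower with miR-294. Phf5a, a small SF3b subunit that contacts the branch point, was at a mean of 152 FPKM in WT, 59.5 in KO, 142 in the miR-294 group and 52.2 in the siMbnl1/2 group. The log2 change of Phf5a was -1.34 in KO minus WT (adjusted p = 6.44e-06) and 1.24 in miR-294 minus KO (adjusted p = 3.02e-05, limma). In KO minus WT the largest called changes of the other 3 lists were in Snrpg (-1.13), Lsm6 (-1.30) and Bud31 (-1.14).

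Scaling bore on these lists unequally. After quantile normalization the medians in KO minus WT were -0.34 for the tri-snRNP, -0.25 for U2 and SF3, -0.19 for Prp19 and -0.14 for U1 and Sm, and 18, 9, 10 and 6 genes were called lower. Of all genes, 30.5% were then called lower, with a median of -0.04. The medians of SR-related and hnRNP-related proteins changed sign, to 0.07 and 0.05, as did that of the kinases (0.01). In miR-294 minus KO the 4 core lists had medians of 0.13 to 0.31 after quantile normalization, while those of SR-related (-0.03) and hnRNP-related (-0.07) proteins were below 0. siMbnl1/2 minus KO gave no call in any of the 7 lists as deposited, and 1 hnRNP-related gene was lower after either median-of-ratios scaling or quantile normalization. Without siMbnl1/2 replicate 2, which leaves 1 library in that group, some hnRNP-related, tri-snRNP and Prp19 genes were called. More genes were then called over all genes as well, so these calls are not read as a result about the lists.

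**Figure D5:**
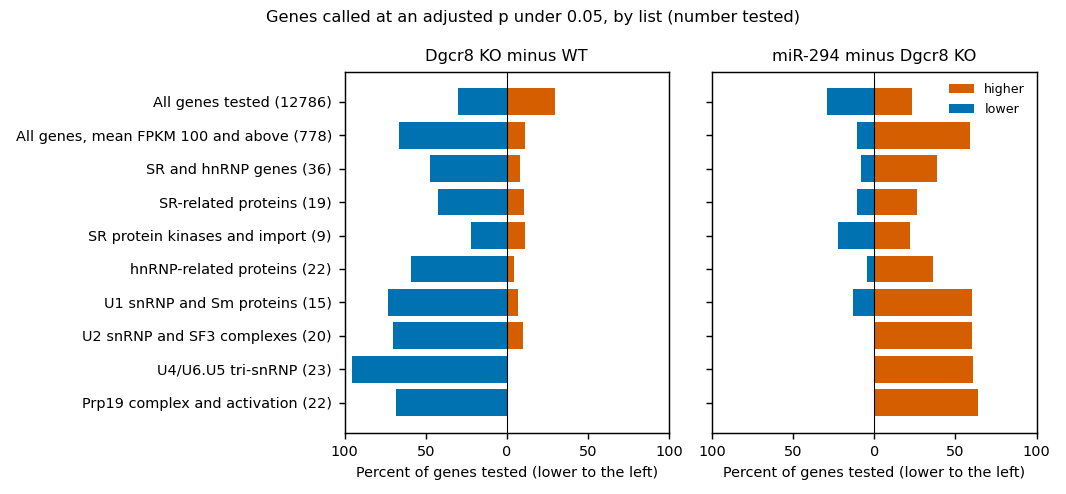
Percent of the tested genes of each list called higher (right of 0) or lower (left of 0) in KO minus WT and in miR-294 minus KO, with the number tested in brackets, next to all genes and all genes at a mean of 100 FPKM or more. The SR and hnRNP genes (47.2% lower in KO, 38.9% higher with miR-294) lie between all genes and the abundant genes, and the tri-snRNP list reaches 22 of 23 lower.

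The promoters of U2af1 and Hnrnpul1 are shown because these genes had clear changes of opposite sign in KO. The windows span 250 bases before to 50 bases after an annotated start (RefSeq, GRCm38.p6), and capitals mark 3 motifs searched on both strands: the E-box CACGTG, the CCAAT box (CCAAT or ATTGG) and the GC box (GGGCGG or CCGCCC). In U2af1 the CCAAT and ATTGG letters overlap.
U2af1, chr17:31658705-31659004, minus strand: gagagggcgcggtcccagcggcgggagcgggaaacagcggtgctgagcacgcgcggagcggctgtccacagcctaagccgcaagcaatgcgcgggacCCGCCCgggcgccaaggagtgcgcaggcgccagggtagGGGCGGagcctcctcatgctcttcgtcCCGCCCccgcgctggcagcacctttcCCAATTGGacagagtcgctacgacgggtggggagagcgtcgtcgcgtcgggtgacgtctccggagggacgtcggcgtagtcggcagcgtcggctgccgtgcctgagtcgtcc
Hnrnpul1, chr7:25754710-25755009, minus strand: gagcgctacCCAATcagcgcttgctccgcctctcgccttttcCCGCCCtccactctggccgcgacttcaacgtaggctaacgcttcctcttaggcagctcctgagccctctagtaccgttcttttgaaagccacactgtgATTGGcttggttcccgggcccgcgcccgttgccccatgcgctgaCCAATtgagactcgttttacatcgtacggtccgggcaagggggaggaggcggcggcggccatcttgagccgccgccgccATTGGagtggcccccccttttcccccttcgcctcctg
U2af1 held 2 CCAAT boxes, counting the overlapping pair, and 3 GC boxes, and Hnrnpul1 held 4 CCAAT boxes and 1 GC box. Neither window held the E-box letters. Promoter entries were matched for 34 of the 37 genes, in 47 windows; Hnrnpll, Hnrnpul2 and U2af2 had none. The GC box was in 40 of the 47 windows (85.1%), against 64.4% of windows of tested genes and 35.7% of all 32851 windows. The CCAAT box was in 25 (53.2%), against 37.95% and 37.4%, and the E-box in 5 (10.6%), against 10.1% and 7.15%. Of the 16 genes lower in KO with a promoter entry, 14 held a GC box, 8 a CCAAT box and 3 an E-box. Of the 15 uncalled genes with an entry, 12, 10 and 2 did, and both higher genes with an entry held a GC box and a CCAAT box. These letters are a description of the windows and not of any factor's binding.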

How the data were processed

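Gene expression was measured by RNA-seq in 8 libraries of 4 groups, labelled as polyA RNA and made with a dUTP method, per the labels' protocols. The authors deposited 1 table of FPKM values per gene; the submitters' processing notes name mm10 as the genome build, and Cufflinks 2.2.1 and STAR 2.5.0 as tools. FPKM is not a count, depth is unknown, and genes that share sequence or overlap could have been split in the authors' quantification. The 12786 of 49641 genes whose mean reached 1 FPKM were tested with limma 3.58.1 in R 4.3.3 on log2(FPKM + 1), with 4 group means over all 8 libraries, empirical Bayes variances with trend and robust estimation, 5 comparisons, two-sided tests and Benjamini-Hochberg adjustment over all genes tested within each comparison. The script was tested on simulated data. Alternatives covered the pseudocount, the filter, scaling, weights, the libraries fitted, a replicate block and leaving out each library. Each comparison names up to 4 called genes with the largest change in each direction with all values; the most abundant gene of each role and the leading gene of each splicing list are also named. The genes and lists were chosen with earlier results of these data known. Near-identical pseudogenes were found with minimap2 (at least 95% identity over 500 bases).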

Additional observations from a re-analysis of the deposited data

How the results depend on the processing

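Among the 36 genes, the 17 lower in KO than in WT became 11 with no filter on low values and 4 after quantile normalization. They became 10 without the variance trend and robust estimation, and 22 with libraries weighted by group spread. The count rose without either siMbnl1/2 library, and fell when any 1 of the 4 libraries compared was left out. The 3 higher became 11 after quantile normalization (2 to 3 when 1 of those 4 was left out). In miR-294 minus KO the 14 higher became 2 and the 3 lower became 15 after quantile normalization; with 1 of the 4 libraries compared left out the counts were 6 to 13 higher and 0 to 2 lower, and with either siMbnl1/2 library left out 15 and 6. In miR-294 minus WT the 0 higher and 1 lower became 3 and 0 after median-of-ratios scaling, 1 and 0 after quantile normalization, 4 and 13 with libraries weighted by group spread and 5 and 16 when just its own 4 libraries were fitted, and the count lower was 0 with any 1 of the 4 libraries compared left out, 1 without either KO library and 6 without either siMbnl1/2 library. In siMbnl1/2 minus miR-294 the 3 higher became 1 after median-of-ratios scaling and 9 after quantile normalization (0 to 5 with 1 of the 4 libraries compared left out), and the 14 lower became 20 and 6 (9 to 18 with 1 of those 4 left out). The counts of 0 in siMbnl1/2 minus KO held under every alternative. Leaving out a library reduces the number of samples; the cause of the other shifts was not tested. Among the called genes, the sign changed after quantile normalization in KO minus WT for Srsf6 (0.04), Srsf1 (0.16), Hnrnpab (0.04), Srsf5 (0.06), Srsf7 (0.08) and Sf3b1 (0.01), in miR-294 minus KO for Srsf1 (-0.09) and Hnrnpa1 (-0.25), and in siMbnl1/2 minus miR-294 for Srsf1 (0.03).

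With a replicate block the counts (higher and lower) were 2 and 15 in KO minus WT, 12 and 2 in miR-294 minus KO, 2 and 12 in siMbnl1/2 minus miR-294, 0 and 1 in miR-294 minus WT and 0 and 0 in siMbnl1/2 minus KO. The replicate numbers do not show a pairing: over all genes, the deviations of same-numbered libraries correlated with r = 0.19 for WT and KO, 0.06 for WT and miR-294, 0.08 for KO and miR-294, 0.05 for WT and siMbnl1/2, -0.05 for KO and siMbnl1/2 and 0.002 for miR-294 and siMbnl1/2.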
